A study of Homo sapiens with 12 samples.

Results

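The SKOV3 family comprised the ovarian cancer cell line SKOV3 and its taxol-resistant derivative SKOV3_TR, and it was set against the HeyA8 family (HeyA8 and carboplatin-resistant HeyA8_MDR) and the OV2008 family (OV2008 and cisplatin-resistant OV2008_C13). Each of these 6 lines was given either vehicle or 8 µM quinacrine (QC), an antimalarial drug, for 6 h, and 1 RNA-seq library was made per line and treatment. A gene was a member where its lowest normalized level in the 4 SKOV3-family libraries exceeded its highest level in the 8 other libraries, or where its highest level in the 4 was below the lowest in the 8. Levels are given as CPM, read counts brought to a common library size after trimmed mean of M-values scaling. Of 39590 genes with at least 1 count, 2925 lay above and 1955 below the other families, and of the 17766 genes that passed the filter on low counts, 2450 were higher (13.8%) and 1875 were lower (10.6%). The study used the line pairs to ask how sensitive and resistant cells answered QC, whereas the split described here runs across families and does not use the drug.

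Established cancer lines keep much of the gene program of the epithelium they came from, and they carry the gene losses and amplifications fixed in the tumor or in culture. Ovarian carcinomas of Müllerian type express the transcription factors PAX8 and SOX17, whereas squamous epithelia express TP63 and KRT5. SKOV3 is known as a line with amplified ERBB2, a receptor tyrosine kinase on the long arm of chromosome 17.

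Total counts were between 17782556 and 30585059 per library. The libraries of a family are 2 related lines under 2 treatments and not independent replicates, so p-values measure only the spread among these libraries, and with the family as the unit the comparison is 1 against 2 and no test is possible. Per the study's culture conditions the SKOV3 and OV2008 lines were grown in RPMI-1640 and the HeyA8 lines in DMEM, so medium and family cannot be told apart for HeyA8. Leukocyte markers were near 0 throughout: 6 of the 16 listed had 0 counts in the SKOV3 family, 2 of 16 passed the filter, and the list summed to 0.661 to 4.46 CPM in the SKOV3 family and 1.49 to 4.84 CPM in the others. Endothelial and fibroblast markers summed to 17.6 to 57.2 CPM in the SKOV3 family and 20.04 to 190.6 CPM in the others. As these are bulk RNA samples, fewer cells with a transcript and less transcript per cell cannot be told apart.

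Of the 3 families, the SKOV3 family held the most such genes. Members not overlapping in either direction made up 24.3% of the tested genes, against 18.3% for the HeyA8 family and 19.9% for the OV2008 family by the same rule. The gap between the families was at least 1 on the log2 scale for 863 of the higher and 389 of the lower genes, and at least 3 for 261 and 74. In 194 higher genes each of the 8 other libraries held 3 counts or fewer, and 122 lower genes had 3 counts or fewer in each SKOV3-family library. At the edge of the rule, ARPP19 was just inside at 212.5 CPM in both the lowest SKOV3-family library and the highest other library, and LRP11 was just outside at 5.64 CPM in both. On the lower side, HRK was just inside with a highest SKOV3-family level of 2.59 CPM and a lowest other level of 2.59 CPM, and ARFGAP1 was just outside at 102.5 CPM in both. The edgeR quasi-likelihood test on the same libraries called 5017 genes higher (28.2%) and 4071 lower (22.9%) at an adjusted p under 0.05, among them 2432 of the 2450 and 1864 of the 1875 members. These calls and the membership rest on the same values, so they are not separate support.

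PPP1R1B had the widest gap of all members. It encodes DARPP-32, an inhibitor of protein phosphatase 1, and was measured at 1374 CPM in SKOV3, 1514 in SKOV3 with QC, 1135 in SKOV3_TR and 1317 in SKOV3_TR with QC. In the 8 other libraries the lowest level was 0.0879, the median 0.172 and the highest 0.661 CPM. All 4 SKOV3-family libraries were therefore high and close to each other, and the others were near the floor. The log2 difference from the mean of the other families was 12.19 ± 0.46 (approximate SE, derived from the test statistic).

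Among the 25 widest gaps on the higher side, 16 genes had 3 counts or fewer in each of the other libraries, 5 were zinc-finger genes or their antisense RNA on chromosome 19, and 5 were long non-coding or antisense RNAs. ANO5, a member of the anoctamin family of membrane proteins, reached 44.7 to 63.6 CPM in the SKOV3 family and had 0 counts in all 8 others. TENM1, a teneurin adhesion protein, was at 96.7, 176.4, 267.3 and 246.1 CPM in the order SKOV3, SKOV3 with QC, SKOV3_TR and SKOV3_TR with QC, against at most 0.237 CPM elsewhere. MAL, a lipid raft protein of apical membranes, was at 77.5, 58.4, 180.3 and 127.9 CPM in the same order, against at most 0.132 CPM. For both TENM1 and MAL the SKOV3_TR libraries were the higher ones within the family. CACNA1H, a T-type calcium channel subunit, lay between 41.7 and 90.8 CPM and at most at 0.176 CPM elsewhere. TBX15, a T-box factor, lay between 26.4 and 37.4 CPM against at most 0.183 CPM. The other genes with the widest gaps were TRIM58, DCAF12L1, GSTM3, GPR158, RNF144A, TAFA5, KIF12, COX7B2, RPS6KA6, SOX5-AS1, LINC02167, LINC02864 and LINC01997, besides those named with the zinc-finger genes. The 25 genes spanned 8.42 to 1514 CPM in the SKOV3 family and 0 to 0.661 CPM elsewhere.

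**Figure D1:**
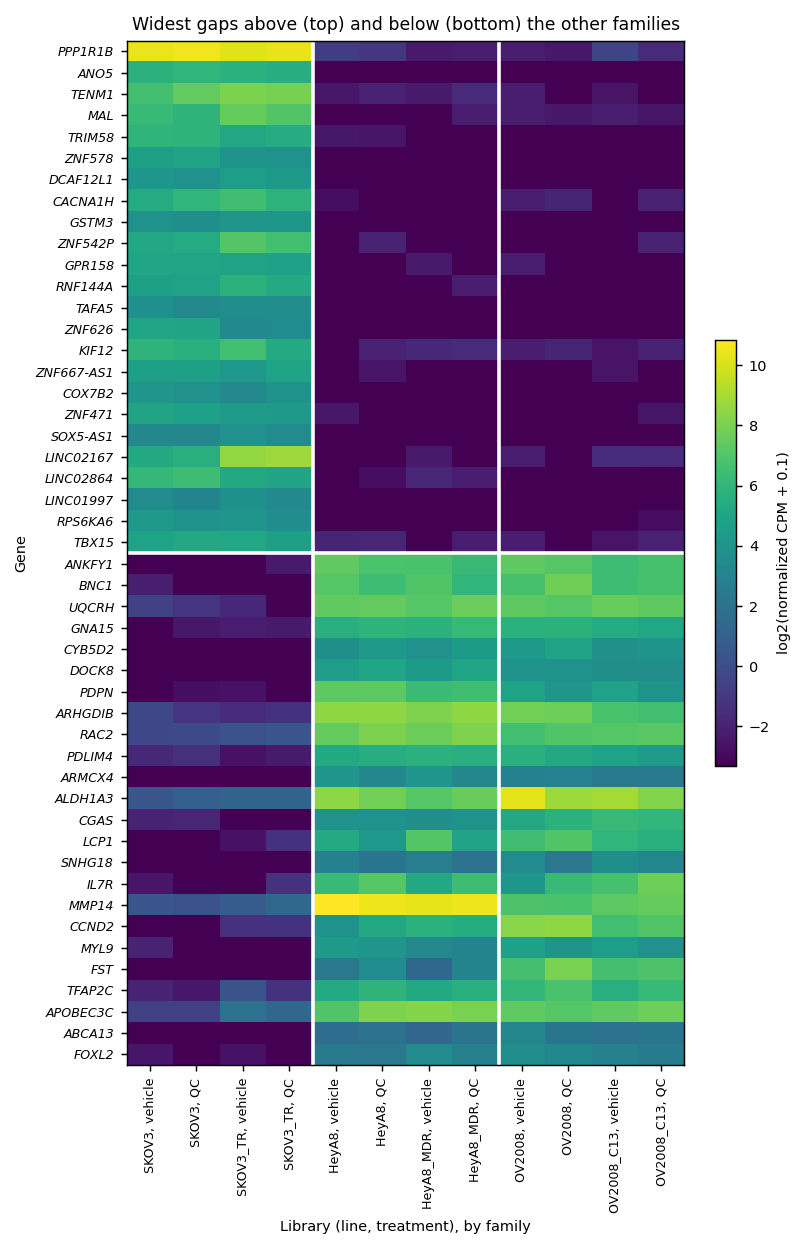
Heat map of 24 of the 25 genes with the widest gap on each side (rows) in the 12 libraries (columns, grouped by family), colored by log2 of normalized CPM plus 0.1. The upper 24 genes are bright in the 4 SKOV3-family libraries, where they span 8.42 to 1514 CPM, and dark in the other 8, where none exceeds 0.661 CPM, while the lower 24 show the reverse.

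On the lower side, the widest gap was at ANKFY1, which encodes an endosomal Rab5 effector. It had 0 counts in SKOV3, SKOV3 with QC and SKOV3_TR and 2 counts in SKOV3_TR with QC, whereas the other 8 libraries held 77.6, 111.6 and 166.6 CPM as the lowest, median and highest. UQCRH, a subunit of mitochondrial complex III, was at 0.587, 0.364, 0.208 and 0 CPM in SKOV3, SKOV3 with QC, SKOV3_TR and SKOV3_TR with QC, against 139.9 to 202.4 CPM. Its near-identical copy UQCRHL, with which reads can be shared, was at 0.107 to 0.297 CPM against 10.4 to 15.3 CPM. Both copies were thus near the floor in every SKOV3-family library. DOCK8, a guanine nucleotide exchange factor, had 0 counts in all 4 SKOV3-family libraries and 12.5 to 32.9 CPM elsewhere.

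Tumor suppressor genes differed in both directions. CDKN1A, which encodes the cell cycle inhibitor p21, was at 21.1, 36.8, 35.5 and 32.0 CPM in SKOV3, SKOV3 with QC, SKOV3_TR and SKOV3_TR with QC, against a lowest, median and highest of 68.6, 432.0 and 769.8 CPM in the other families. FBXW7, a ubiquitin ligase subunit, was lower at 14.5 to 18.8 CPM against 25.4 to 140.9 CPM, and SMAD4, the shared mediator of TGF-beta signaling, was higher at 80.8 to 117.9 against 16.7 to 43.2 CPM. Of 22 tested genes of the tumor suppressor list 2 were higher (SMAD4 and STK11, 9.09%) and 3 lower (13.6%), shares near or below the 13.8% and 10.6% of all tested genes. CDKN2A, the cell cycle inhibitor p16, overlapped with HeyA8. It had 0 counts in 3 SKOV3-family libraries and 0.320 CPM in the fourth, 0 CPM in HeyA8 libraries and 115.6 to 163.7 CPM in OV2008 libraries. Its chromosomal neighbor MTAP, a methionine salvage enzyme, was at 39.9 to 53.8 CPM in the SKOV3 family and at most at 0.118 CPM in the HeyA8 family.

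Several of the lowest genes were neighbors. Next to ANKFY1 on chromosome 17, CYB5D2 had 0 counts in all 4 SKOV3-family libraries against 13.1 to 29.6 CPM, and UBE2G1, a ubiquitin-conjugating enzyme, was at 3.77 to 4.60 CPM against 37 to 124.1 CPM. ZZEF1, beside CYB5D2, was at 51.7 to 57.1 CPM and only just below the lowest other library at 60.7 CPM. LRRC41, beside UQCRH on chromosome 1, was at 2.82 to 7.58 CPM against 86.7 to 117.3 CPM, whereas NSUN4 on the other side of UQCRH overlapped between the families. DNA copy number was not measured here.

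The remaining wide gaps on the lower side included genes of very different function. MMP14, a membrane-anchored matrix protease, was at 1.26, 1.09, 1.57 and 2.56 CPM in SKOV3, SKOV3 with QC, SKOV3_TR and SKOV3_TR with QC, against a lowest, median and highest of 108.6, 742.4 and 1848 CPM. PDPN, the mucin-type glycoprotein podoplanin, was at most at 0.0594 CPM against 16.4 to 161.8 CPM, and MYL9, a myosin light chain, at most at 0.168 CPM against 8.23 to 27.9 CPM. The HeyA8 and OV2008 libraries each lay above every SKOV3-family library for these 3 genes. RAC2 and ARHGDIB, a small GTPase and a GDP dissociation inhibitor best known from blood cells, were at 0.754 to 1.23 and 0.238 to 0.754 CPM against 95.2 to 274.7 and 94.0 to 351.5 CPM. LCP1 and IL7R, also known from blood cells, were at most at 0.320 and 0.320 CPM in the SKOV3 family and at 18.7 to 132.9 and 18.3 to 211.2 CPM elsewhere. CGAS, the cytosolic DNA sensor, was at most at 0.182 CPM against 12.6 to 76.4 CPM, and APOBEC3C, a cytidine deaminase, at 0.545 to 4.01 CPM against 129.7 to 294.5 CPM. CCND2, a D-type cyclin, was at most at 0.320 CPM against 15.4 to 343.0 CPM. The remaining genes of this group were GNA15, PDLIM4, ARMCX4, SNHG18 and ABCA13, together with BNC1, ALDH1A3, FST, TFAP2C and FOXL2, which are described with their lists.

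A block around ERBB2 on chromosome 17 was high in the SKOV3 family. ERBB2 was at 8545, 7147, 4049 and 3540 CPM in SKOV3, SKOV3 with QC, SKOV3_TR and SKOV3_TR with QC, against a lowest, median and highest of 34.7, 71.1 and 132.5 CPM in the other families. Every SKOV3-family library was at least 26.7 times the highest other library, and both SKOV3_TR libraries were below both SKOV3 libraries. The log2 difference was 6.39 ± 0.30. Of the 17 tested ERBB2 neighbors, a list that does not contain ERBB2 itself, 11 were higher (64.7%) and 0 lower, against 13.8% and 10.6% of all tested genes, and the median log2 difference of the list was 3.03 against 0.08 for all tested genes.

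In chromosome order, the 9 consecutive tested genes from a long non-coding RNA before PPP1R1B to GRB7 were all members, and together they reached 6601 to 12880 CPM in the SKOV3 family and 151.3 to 281.4 CPM elsewhere. STARD3, a cholesterol transporter of late endosomes, was at 600.0, 460.4, 379.6 and 373.8 CPM against 35.3 to 69.5 CPM. MIEN1, a membrane-anchored protein encoded beside ERBB2, was at 2021, 1748, 756.5 and 685.1 CPM against 24.3 to 58.1 CPM. GRB7, an adaptor that binds ERBB2, was at 154.8, 95.4, 555.4 and 573.3 CPM against 0.147 to 62.9 CPM. GRB7 therefore differed from ERBB2 and MIEN1 in being higher in SKOV3_TR than in SKOV3. TCAP and PNMT, a sarcomere protein and the enzyme that makes adrenaline, were at 7.64 to 11.4 and 5.79 to 7.56 CPM against at most 0.879 and 0.572 CPM. Farther out, GSDMB, a gasdermin, was higher at 56.2 to 78.7 CPM against at most 14.5 CPM, as were FBXL20, an F-box protein gene, at 63.3 to 77.6 against at most 37.2 CPM and ORMDL3, a regulator of sphingolipid synthesis, at 63.0 to 98.3 against at most 44.8 CPM. MED1 was just above the other families at 220.8 to 306.9 against 78.5 to 213.9 CPM, CDK12 and PSMD3 overlapped, and MED24 was at 53.7 to 105.6 CPM against 99.4 to 160.8 CPM.

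**Figure D2:**
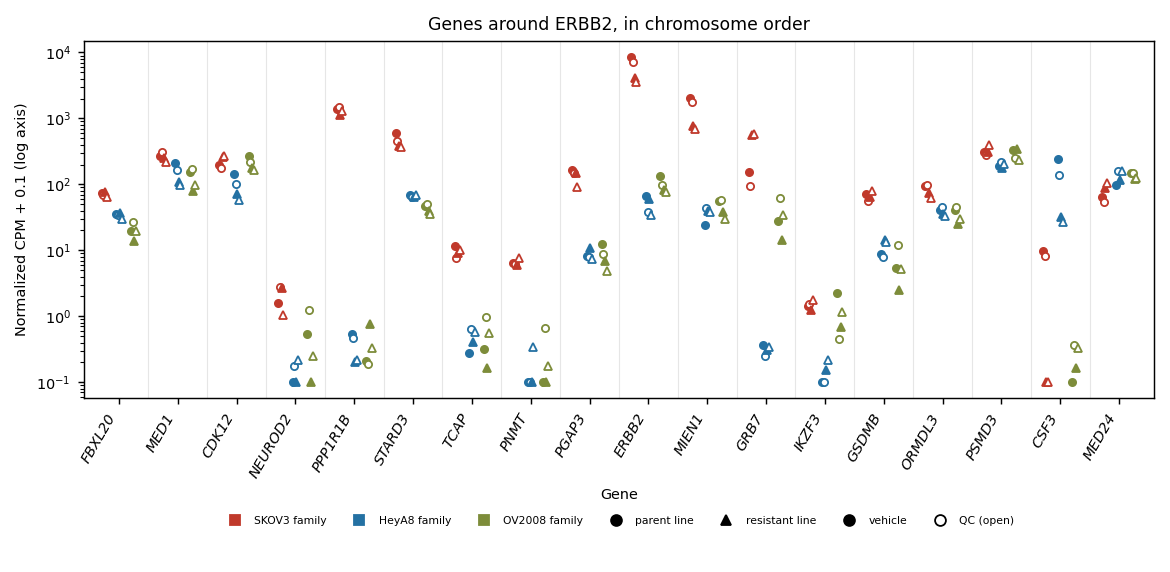
Normalized CPM plus 0.1 (log axis) of ERBB2 and its 17 tested neighbors in chromosome order, with 1 point per library, colored by family, shaped by parent or resistant line and open for QC. From PPP1R1B to GRB7 each red SKOV3-family point lies above all others, with ERBB2 at 3540 to 8545 CPM against 34.7 to 132.5 CPM, whereas CDK12 and PSMD3 overlap.

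The other ERBB receptors and their ligands were mixed. ERBB4, a neuregulin receptor, was higher at 7.79, 5.37, 77.5 and 43.1 CPM against at most 0.894 CPM, and within the family it was high mainly in SKOV3_TR. EGFR overlapped at 184.2 to 327.2 CPM against 285.1 to 1607 CPM, and ERBB3 overlapped at 6.51 to 20.6 CPM against 0.486 to 50.1 CPM. The EGFR ligands TGFA and HBEGF were lower members at 8.52 to 45.8 and 2.85 to 7.93 CPM against 80.1 to 166.1 and 17.4 to 82.3 CPM. In the list of 13 receptors and ligands 2 were thus higher and 2 lower (15.4% each), near the shares of all tested genes.

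Zinc-finger genes on chromosome 19 were frequent among the higher members. These genes encode DNA-binding proteins, most of them with a KRAB repressor domain and many of them silencers of transposable elements, and they lie in clusters of recent duplicates. Of 268 tested genes of chromosome 19 whose symbol begins with ZNF, 108 were higher (40.3%) and 3 lower (1.12%), against 13.8% and 10.6% of all tested genes. Other genes of chromosome 19 were higher in 136 and lower in 130 of 1013, and ZNF genes elsewhere were higher in 61 and lower in 14 of 266. Treated in the same way, the HeyA8 family was above both others for 3 of the 268 (1.12%, against 9.81% of all genes) and below for 31 (11.6%, against 8.51%), and the OV2008 family was above for 9 (3.36%, against 11.2%) and below for 31 (11.6%, against 8.74%). The median log2 difference of the 268 genes was 1.14 against HeyA8 and 0.97 against OV2008, where all tested genes had 0.06 and 0.06. The count of higher genes was 108 with trimmed mean scaling, 111 with DESeq2 size factors and 122 with library size alone. This family was picked after its values were seen.

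For the 108 higher genes, the median of their SKOV3-family means was 19.3 CPM and that of their means in the other families 1.76 CPM. Of these genes 12 had 3 counts or fewer in each of the 8 other libraries, 18 in each HeyA8 library and 31 in each OV2008 library. Between the lines of the family, 5 were at least 2-fold lower and 2 at least 2-fold higher in SKOV3_TR in both treatments. In chromosome order, 8 runs of 7 or more consecutive tested genes were higher, 4 of which held at least 2 zinc-finger genes, and 0 such runs were lower. The longest run, 11 genes from ZNF253 to ZNF66 on chromosome 19, summed to 78.5 to 139.8 CPM in the SKOV3 family and to 0 to 5.48 CPM elsewhere. A run of 9 genes from ZNF610 to ZNF808 summed to 127.0 to 232.3 CPM against 5.80 to 27.2 CPM, and a run of 7 genes from ZNF43 to ZNF730 to 23.3 to 43.2 CPM against 0 to 6.14 CPM. The remaining run with several zinc-finger genes, from ZNF354A to ZNF354C on chromosome 5, summed to 131.9 to 140.9 CPM against 24.3 to 52.2 CPM. In the order given, 5, 4, 5 and 1 genes of these 4 runs had 3 counts or fewer in each of the 8 other libraries. Such genes, like the 12 above, passed the filter only through the SKOV3 family, so their place among the higher genes was fixed in advance. Run lengths were not set against a background.

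Several chromosome 19 zinc-finger genes were at or near 0 in every library outside the family. ZNF626 was at 32.1, 30.5, 10.5 and 11.8 CPM in SKOV3, SKOV3 with QC, SKOV3_TR and SKOV3_TR with QC, and had 0 counts in the 8 other libraries. ZNF737 was at 37.2, 28.9, 17.6 and 16.9 CPM against at most 0.132 CPM, and ZNF578 at 26.8, 31.4, 15.8 and 14.8 CPM against 0 counts. For all 3 genes the SKOV3 libraries were above the SKOV3_TR libraries. ZNF667 was at 40.3, 35.4, 27.5 and 26.9 CPM against at most 0.209 CPM, and its antisense transcript ZNF667-AS1 at 19.01 to 29.8 CPM against at most 0.0733 CPM. The strand setting of the counting is not given in the sources used here, so reads of ZNF667 and ZNF667-AS1 cannot be told apart, and paralogs within a cluster may share reads. ZNF471 and the pseudogene ZNF542P, both on chromosome 19, were at 19.9 to 31.3 and 36.6 to 134.5 CPM against at most 0.0884 and 0.151 CPM.

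The promoters of 4 of these genes are shown because their transcripts were present in the SKOV3 family and at or near 0 elsewhere. Each is the RefSeq window of 300 bases on GRCh38.p14, 5′ to 3′ on the gene's strand, with every CG dinucleotide in capitals, the letter pair at which mammalian DNA is methylated. The windows are chr19:20661522-20661821 on the minus strand for ZNF626, chr19:20565732-20566031 on the minus strand for ZNF737, chr19:52453303-52453602 on the plus strand for ZNF578 and chr19:56477296-56477595 on the minus strand for ZNF667.
ZNF626: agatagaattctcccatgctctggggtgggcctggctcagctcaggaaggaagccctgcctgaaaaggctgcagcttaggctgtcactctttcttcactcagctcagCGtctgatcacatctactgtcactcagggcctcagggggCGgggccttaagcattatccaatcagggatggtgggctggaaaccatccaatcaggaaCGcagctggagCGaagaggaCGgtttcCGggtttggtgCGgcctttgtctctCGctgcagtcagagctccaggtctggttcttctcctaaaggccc
ZNF737: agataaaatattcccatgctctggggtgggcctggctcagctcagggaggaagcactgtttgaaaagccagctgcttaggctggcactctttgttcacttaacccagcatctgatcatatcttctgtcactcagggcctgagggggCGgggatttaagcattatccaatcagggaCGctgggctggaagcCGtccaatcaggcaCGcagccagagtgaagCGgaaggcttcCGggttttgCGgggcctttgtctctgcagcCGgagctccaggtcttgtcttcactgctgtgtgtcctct
ZNF578: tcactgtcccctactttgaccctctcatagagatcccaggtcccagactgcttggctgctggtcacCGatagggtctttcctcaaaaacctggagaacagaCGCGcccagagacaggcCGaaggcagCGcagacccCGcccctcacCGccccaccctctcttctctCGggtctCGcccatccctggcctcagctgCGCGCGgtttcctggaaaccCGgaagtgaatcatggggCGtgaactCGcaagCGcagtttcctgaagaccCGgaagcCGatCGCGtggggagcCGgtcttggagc
ZNF667: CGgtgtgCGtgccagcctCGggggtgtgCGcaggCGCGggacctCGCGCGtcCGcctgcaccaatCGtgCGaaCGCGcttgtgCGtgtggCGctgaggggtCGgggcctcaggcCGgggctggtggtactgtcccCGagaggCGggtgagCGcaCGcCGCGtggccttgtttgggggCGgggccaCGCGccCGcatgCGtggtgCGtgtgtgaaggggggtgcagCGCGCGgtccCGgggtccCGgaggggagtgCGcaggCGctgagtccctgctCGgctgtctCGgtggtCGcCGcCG

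The pair CG, which reads the same on both strands, occurred 8 times in the ZNF626 window, 8 times in that of ZNF737, 21 times in that of ZNF578 and 42 times in that of ZNF667. At least 8 were present in 60.7% of the 35116 promoter windows of the table, at least 21 in 39.5% and at least 42 in 5.85%. The median was 14 over all these windows but 25 over the tested genes with a window, which is above the 21 of ZNF578. Over chromosome 19 ZNF genes with a window, the median was 20 per window for 90 of the 108 higher genes and 21 for 140 of the 160 not higher. These windows thus ranged from poor to rich in CG, and methylation was not measured here.

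**Figure D3:**
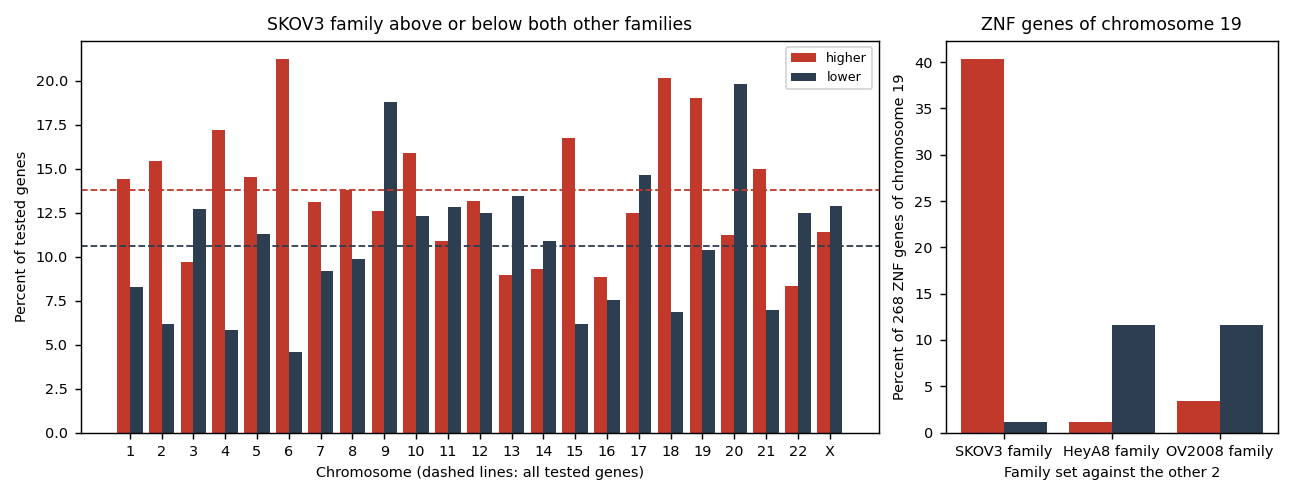
Left, percent of the tested genes of each chromosome that were higher (red) or lower (dark) in the SKOV3 family than in both other families, with dashed lines at the shares of all tested genes (13.8% and 10.6%). Right, the same shares among the 268 ZNF genes of chromosome 19 for each family set against the other 2, where the SKOV3 family reaches 40.3% higher and the other families 1.12% and 3.36%.

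Across chromosomes, higher members were most frequent on chromosome 6 (21.2%), chromosome 18 (20.2%) and chromosome 19 (19.1%), against 13.8% of all tested genes. Lower members were most frequent on chromosome 20 (19.8%), chromosome 9 (18.8%) and chromosome 17 (14.6%), against 10.6% of all tested genes. On chromosome 19 the genes other than ZNF genes were higher in 13.4%, close to the share of all tested genes. On chromosome 6 185 of 872 genes were higher and 40 lower, and on chromosome 20 55 of 490 were higher and 97 lower. A run of 7 higher genes on chromosome 6 held E2F3, CDKAL1 and SOX4. E2F3 and CDKAL1 were only just above the other families, at 45.2 to 62.3 against at most 41.2 CPM and at 18.9 to 28.3 against at most 17.65 CPM. SOX4, a transcription factor of progenitor cells, was at 240.5, 211.8, 229.4 and 205.6 CPM in the SKOV3-family libraries against 14.8 to 27.4 CPM.

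Epithelial markers placed the SKOV3 family between the other families. Of 37 tested epithelial genes, 2 were higher (5.41%) and 1 lower (2.703%), both below the shares of all tested genes, while 15 (40.5%) lay in every SKOV3-family library above all HeyA8 and below all OV2008 libraries, whereas 1.32% of all tested genes had that order. Against HeyA8 25 of the 37 lay wholly above, and against OV2008 27 lay wholly below, where 4186 and 4056 of all 17766 tested genes did so. CDH1, the epithelial adhesion protein E-cadherin, was at 42.0, 51.0, 10.7 and 3.68 CPM in SKOV3, SKOV3 with QC, SKOV3_TR and SKOV3_TR with QC, at 0 to 0.221 CPM in HeyA8 and at 307.1 to 521.8 CPM in OV2008 libraries. EPCAM, another epithelial adhesion protein, was at 52.5 and 52.9 CPM in SKOV3 and at 3.09 and 4.10 CPM in SKOV3_TR libraries. SKOV3_TR was therefore the lower line for both. SPINT2, a protease inhibitor, and ELF3, an epithelial transcription factor, were near OV2008, at 177.1 to 191.7 CPM against 162.4 to 214.8 CPM in OV2008 for SPINT2 and at 98.2 to 124.0 CPM against 50.4 to 104.7 CPM for ELF3. GRHL2 and RAB25, a regulator of epithelial genes and an epithelial Rab GTPase, were at most at 0.0594 CPM in the SKOV3 family and at most at 0.0884 CPM in HeyA8, but at 87.7 to 103.1 and 36.7 to 73.0 CPM in OV2008. The 2 higher genes were the tight junction genes CLDN3 (11.6 to 16.96 CPM against at most 3.41) and TJP3 (13.01 to 34.6 CPM against at most 5.53), and CLDN1 was lower at 32.0 to 105.7 against 121.3 to 657.2 CPM.

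Keratins were lower members in 4 of 17 cases (23.5%, against 10.6% of all tested genes) and higher in 0 (against 13.8%). They were low mainly in comparison with OV2008: 4 of the 17 lay wholly below HeyA8 and 16 below OV2008. The median log2 difference of the list was 0 against HeyA8 and -5.14 against OV2008. KRT8 and KRT18, the paired keratins of simple epithelia, were at 211.9 to 352.6 and 161.6 to 211.0 CPM against 810.4 to 3949 and 477.4 to 2098 CPM. KRT15, a basal keratin, and KRT81, a hair keratin, were also lower, at 0.0910 to 3.57 and 0.0910 to 0.426 CPM against 4.03 to 135.1 and 1.18 to 34.6 CPM. KRT7, a keratin of ductal epithelia, overlapped with HeyA8 and lay at 259.4, 327.9, 628.9 and 678.0 CPM, above OV2008 at 13.8 to 26.8 CPM.

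Mesenchymal genes were mixed. Of 27 tested, 3 were higher (11.1%) and 1 lower (3.70%), both below the shares of all tested genes, and 6 (22.2%) lay below all HeyA8 and above all OV2008 libraries, against 1.42% of all tested genes. VIM, the mesenchymal intermediate filament vimentin, was at 1577, 1189, 1693 and 2174 CPM in the SKOV3 family, at 7935 to 11920 CPM in HeyA8 and at 0.223 to 1.95 CPM in OV2008 libraries. ZEB1, a repressor of CDH1, was at 49.2 to 68.5 CPM in the SKOV3 family, and it overlapped with HeyA8 (31.7 to 158.1 CPM) and lay above OV2008 (0.112 to 0.602 CPM). S100A4, a calcium-binding protein of motile cells, was at 739.6, 638.5, 391.7 and 564.4 CPM against at most 4.44 CPM, and MMP2, a gelatinase, at 56.7, 29.0, 124.3 and 132.1 CPM against at most 21.04 CPM. In contrast SNAI2, a repressor of epithelial genes, was at 0.653 to 1.76 CPM against 34.6 to 108.2 CPM, while its relative SNAI1 was higher at 2.60 to 4.63 against 0.661 to 2.19 CPM. CDH1 and VIM transcripts were thus both present in all 4 SKOV3-family libraries.

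**Figure D4:**
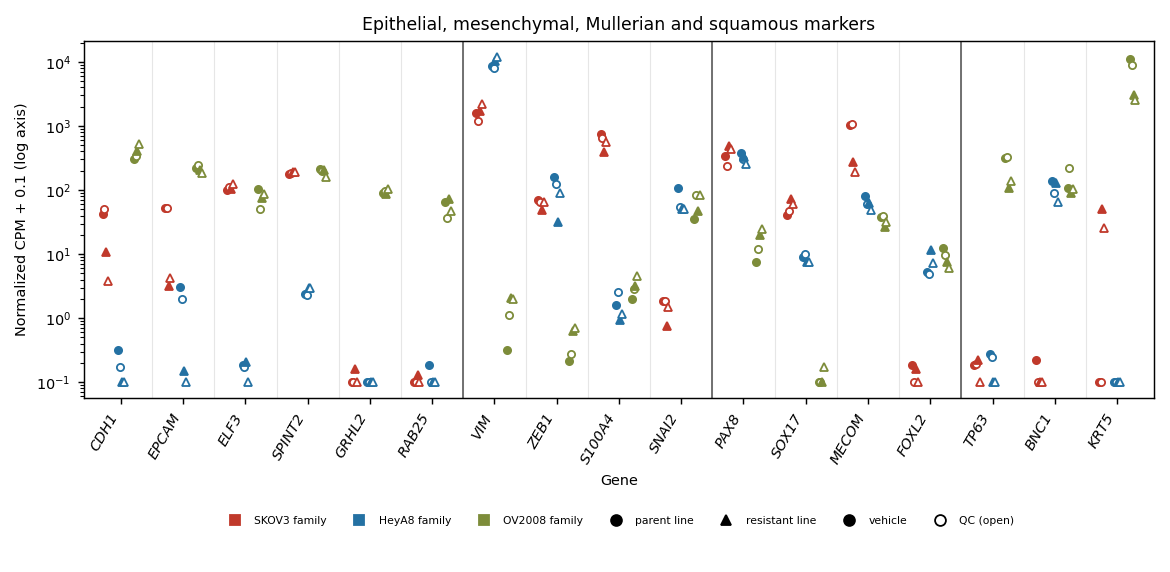
Normalized CPM plus 0.1 (log axis) of 17 markers, separated by vertical lines into epithelial, mesenchymal, Müllerian and squamous genes, with 1 point per library, colored by family. The SKOV3 family holds both CDH1 (3.68 to 51.0 CPM) and VIM (1189 to 2174 CPM), is above both other families for SOX17 and MECOM, and holds at most 0.119 CPM of TP63.

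The Müllerian factors PAX8 and SOX17 were present in all 4 SKOV3-family libraries, but some other ovarian markers were near 0 in SKOV3_TR. PAX8, a defining factor of the lineage, was at 339.2, 234.6, 482.3 and 431.4 CPM, which overlapped with HeyA8 at 254.7 to 378.8 CPM and lay above OV2008 at 7.54 to 24.7 CPM. Of 23 tested genes of the lineage list 4 were higher (17.4%, against 13.8% of all tested genes) and 1 lower (4.35%, against 10.6%), and the median log2 difference of the list was 1.79 against 0.08 for all tested genes. SOX17, a partner of PAX8, was at 40.3, 46.9, 71.3 and 60.6 CPM against 7.37 to 9.82 CPM in HeyA8 and at most 0.0753 CPM in OV2008. MECOM, a zinc-finger factor of chromosome 3, was at 1028, 1090, 272.4 and 193.2 CPM against 26.2 to 79.4 CPM. MUC1, a membrane mucin, was at 12.9 to 53.4 against 0.679 to 3.35 CPM. FOXL2, a factor of ovarian granulosa cells, was the lower gene, at most at 0.0838 CPM against 4.84 to 12.4 CPM. WT1, which marks serous carcinoma, was at 1.001 to 3.65 CPM and overlapped with the others. ESR1, FOLR1 and MUC16, which were not members, were present in SKOV3 but at most at 0.416, 0.107 and 0.238 CPM in SKOV3_TR.

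Squamous genes were low mainly in comparison with OV2008. Of 19 tested, 4 lay wholly below HeyA8 and 18 below OV2008. The 4 lower members (21.1%, against 10.6% of all tested genes) were BNC1, SFN, SERPINB5 and SOX15, and 0 were higher. On the same values, the edgeR test against the mean of the other families called 14 of the 19 lower, against 22.9% of all tested genes. The median log2 difference of the list was -2.37 against HeyA8 and -9.25 against OV2008. The 14 calls thus include the high levels in OV2008 and are not separate support. TP63, the defining factor of squamous epithelium, was at most at 0.119 CPM in the SKOV3 family and 0.177 CPM in HeyA8 and at 107.2 to 328.1 CPM in OV2008, and KRT5, a basal keratin, reached 2547 to 11180 CPM in OV2008. KRT5 had 0 counts in both SKOV3 libraries but was at 49.7 and 25.7 CPM in SKOV3_TR with vehicle and with QC. The OV2008 libraries, labelled as ovarian cancer cells, therefore carried squamous markers and little PAX8, and each comparison with the mean of the other families includes that difference. BNC1, a zinc-finger factor of basal keratinocytes, differed from both families, with 3 counts in SKOV3, 0 in the rest of the SKOV3 family, and 64.3 to 219.3 CPM elsewhere.

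Among 76 tested lineage transcription factors, 6 were higher (7.89%) and 8 lower (10.5%), shares at or below those of all genes. The higher ones were SOX4, SOX12, TBX15, ZIC2, EYA4 and ID4. ZIC2, a neural patterning factor, was at 145.2, 150.9, 113.5 and 122.6 CPM against 18.3 to 35.1 CPM, and SOX12 at 89.5 to 137.9 against 14.8 to 38.4 CPM. TBX3, a T-box repressor, was at most at 0.178 CPM against 6.87 to 200.2 CPM, and TFAP2C, a factor of trophoblast and breast epithelium, at 0.0910 to 1.13 against 39.2 to 110.9 CPM. The other lower ones were SOX7, GATA3, ETV4, KLF4, DLX1 and PAX9. Of 36 HOX genes, the patterning factors of the body axis, 6 were higher (16.7%) and 4 lower (11.1%), shares close to those of all tested genes. HOXD8 was at 33.6, 37.2, 16.1 and 16.7 CPM against 1.65 to 7.20 CPM, and HOXC6 at most at 0.238 CPM against 3.17 to 7.16 CPM.

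Adhesion genes held many higher members. Of 31 tested cadherins and protocadherins 12 were higher (38.7%, against 13.8% of all tested genes) and 2 lower (6.45%, against 10.6%), with a median log2 difference of 1.89. CDH6, a kidney and ovarian cancer cadherin, was at 12.6, 3.73, 57.1 and 48.6 CPM against at most 0.314 CPM, and CDH16, the kidney cadherin, at 34.1, 25.8, 341.0 and 160.1 CPM against at most 3.84 CPM. Both were highest in SKOV3_TR. CELSR2, a planar polarity cadherin, was at 399.3 to 645.3 against 11.3 to 101.9 CPM. Clustered protocadherins on chromosome 5 were higher in 10 of 16 beta, 12 of 21 gamma and 4 of 9 alpha genes and lower in 0, with the reservation that gamma genes share exons, as alpha genes do, so that reads can be split among them. The lower cadherins were CDH5 (at most 0.251 CPM against 6.96 to 176.1 CPM), best known from endothelium, and PCDH1 (6.39 to 8.30 against 44.02 to 228.6 CPM).

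Matrix genes differed in both directions. Of 38 collagens and laminins 9 were higher (23.7%, against 13.8% of all tested genes) and 5 lower (13.2%, against 10.6%). COL4A3, a basement membrane collagen of the kidney glomerulus, was at 139.3, 122.7, 108.9 and 93.6 CPM against at most 0.865 CPM, and its neighbor COL4A4 at 15.2 to 51.9 against at most 6.01 CPM. COL18A1 was at 1433, 1409, 446.6 and 316.7 CPM against 8.53 to 125.8 CPM, and HSPG2, the proteoglycan perlecan, at 673.4 to 1676 against 7.58 to 174.2 CPM. COL17A1, a collagen of hemidesmosomes, was lower at 2.53 to 12.6 CPM against 22.9 to 1601 CPM. Integrins were higher in 5 of 23 (21.7%) and lower in 1 (4.35%). ITGA4 was at 9.37 to 19.7 CPM against at most 0.727 CPM, ITGAV at 309.3 to 462.7 against 45.7 to 168.1 CPM, and ITGB3 at 9.34, 6.23, 183.5 and 172.0 CPM against at most 6.01 CPM. ITGA2, a collagen receptor subunit, was the lower integrin at 11.6 to 34.7 against 67.3 to 256.7 CPM.

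Among secreted ligands and antagonists, FST, the activin antagonist follistatin, had 0 counts in all 4 SKOV3-family libraries against 2.72 to 253.8 CPM. INHBA, an activin subunit, was at 0.0838 to 0.592 against 0.894 to 686.3 CPM, and DKK1, a WNT antagonist, at 0.754, 0.273, 1.43 and 4.05 CPM against 65.9 to 385.1 CPM. BMP6 was higher at 4.94, 4.96, 59.7 and 66.4 CPM against at most 1.12 CPM, and WNT2B at 8.67, 7.23, 257.0 and 125.3 CPM against at most 5.43 CPM. Both of these ligands were higher in SKOV3_TR than in SKOV3. Of the receptors, the BMP receptor BMPR1A was higher at 40.3 to 75.0 against 12.02 to 21.1 CPM, and the WNT receptors FZD7 and LGR4 at 31.7 to 40.8 and 144.0 to 192.8 against 6.25 to 13.3 and 14.98 to 69.9 CPM, whereas FZD8 was lower at 0.419 to 3.12 against 9.19 to 94.3 CPM. The inhibitory SMAD6 and SMAD7 and the BMP mediator SMAD9 were higher too. The gaps were narrow for SMAD6, at 33.3 against 31.9 CPM, and for SMAD7, at 42.0 against 39.2 CPM. Over whole lists, 8 of 35 TGF-beta and BMP genes were higher (22.9%) and 3 lower (8.57%), 6 of 38 WNT genes were higher (15.8%) and 3 lower (7.89%), and 1 of 21 NOTCH genes was higher (4.76%) and 2 lower (9.52%). The WNT and NOTCH shares are near or below the 13.8% and 10.6% of all tested genes. Of 31 other growth factor receptors 4 were higher (12.9%) and 2 lower (6.45%), with RET at 6.98 to 12.97 CPM against at most 0.237 CPM, FGFR4 at 28.2 to 54.8 against 1.77 to 7.71 CPM and EPHA2 lower at 75.9 to 130.8 against 316.0 to 833.4 CPM.

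**Figure D5:**
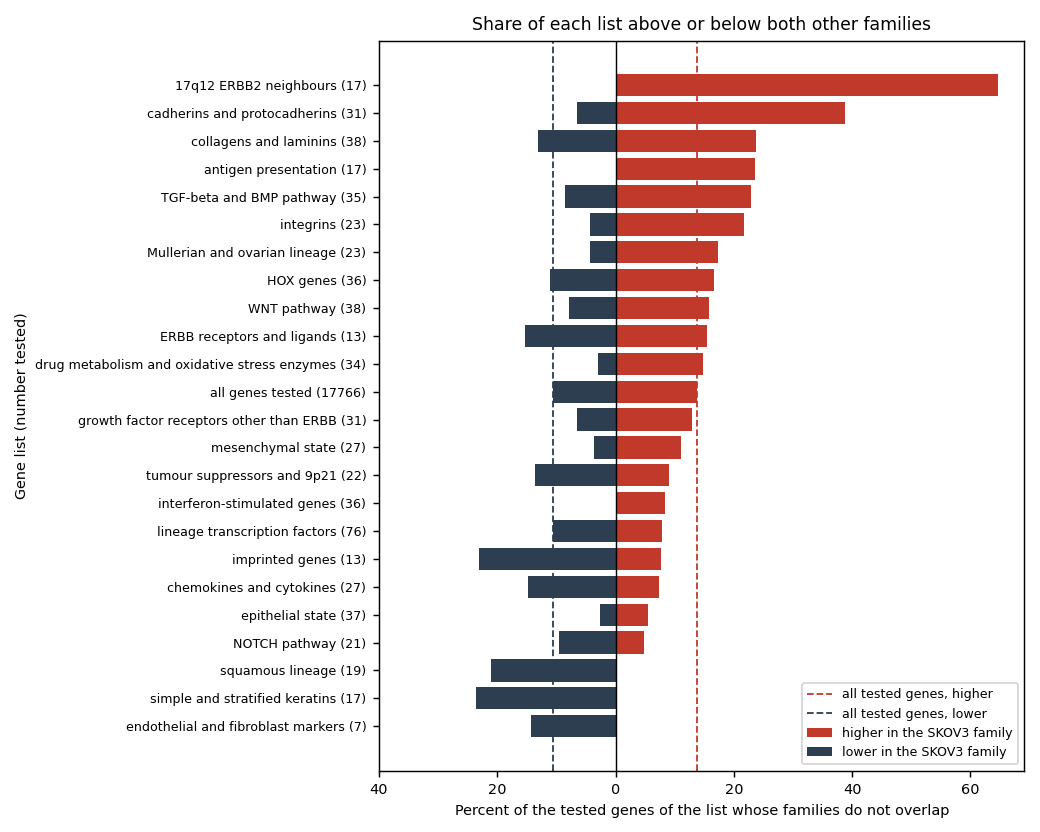
Percent of the tested genes of each list (number tested in brackets) that were higher (red, to the right) or lower (dark, to the left) in the SKOV3 family than in both other families, for lists with at least 5 tested genes. Dashed lines mark the shares of all tested genes, 13.8% higher and 10.6% lower, and the ERBB2 neighbors (64.7% higher) and cadherins (38.7% higher) reach farthest to the right.

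Cytokines were lower in 4 of 27 cases (14.8%, against 10.6% of all tested genes) and higher in 2 (7.41%, against 13.8%), so their share of lower members was close to that of all genes. IL1B, an inflammatory cytokine, was at 7.58, 3.46, 0.594 and 0 CPM against 151.9 to 1274 CPM, and the lymphatic growth factor VEGFC at 0.852 to 4.94 against 13.9 to 66.3 CPM. VEGFA, the angiogenic growth factor, was higher at 683.0, 890.6, 259.6 and 347.4 CPM against 54.6 to 137.1 CPM, as was IL15 at 8.71 to 13 against 0.949 to 3.36 CPM. Antigen presentation genes were higher in 4 of 17 (23.5%) and lower in 0. TAPBP, a loading factor, was at 51.9 to 70.7 against 11.7 to 23.6 CPM. Interferon-stimulated genes were higher in 3 of 36 (8.33%, below the share of all genes) and lower in 0, with HERC5, a ligase for ISG15, at 57.5 to 77.8 against 0.168 to 5.75 CPM.

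Among detoxifying enzymes 5 of 34 were higher (14.7%, close to the 13.8% of all tested genes) and 1 lower (2.94%, against 10.6%). CYP1B1, which oxidizes estrogens and xenobiotics, was at 466.3, 591.7, 242.8 and 244.6 CPM against 0.118 to 9.55 CPM. GSTM3, a glutathione transferase, was at 14.8, 13.3, 16.5 and 18.2 CPM against 0 counts, and its relatives GSTM2 and GSTM4, which are similar enough to share reads, at 4.95 to 6.83 and 16.2 to 60.8 against at most 0.415 and 4.98 CPM. AKR1C3 was just above the others at 59.5 to 320.5 against at most 57.5 CPM. ALDH1A3, a retinaldehyde dehydrogenase, was the lower enzyme at 1.30, 1.82, 2.20 and 2.24 CPM against 140.2, 316.1 and 1245 CPM as the lowest, median and highest. Of 13 tested imprinted genes 1 was higher (7.69%) and 3 lower (23.1%), and of 4 metallothioneins 0 were members. Of the 47 cancer-testis antigens listed, 4 were tested, of which PRAME was higher at 7.69 to 34.6 CPM against 0 counts and IL13RA2 lower at 0.137 to 0.564 against 1.90 to 453.1 CPM.

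Members also varied within the family. SKOV3_TR differed at least 2-fold from SKOV3 in the same direction in both treatments for 421 of the 2450 higher members (17.2%), 266 of them upward and 155 downward, and for 233 of the 1875 lower members (12.4%), against 23.6% of all tested genes. The rule requires all 4 libraries to lie on the same side, which limits such differences, so no more is read from these shares. Examples among members were ERBB2, MECOM and COL18A1, which were lower in SKOV3_TR, and CDH16, BMP6, WNT2B, ITGB3 and ERBB4, which were higher. Several well-known genes that were not members also differed between the lines. ESR1, the estrogen receptor, was at 151.1 and 173.5 CPM in the SKOV3 libraries and at 0.416 and 0.107 CPM in the SKOV3_TR libraries. FOLR1 and MUC16, ovarian cancer surface antigens, were at 22.0 and 19.2 and at 10.9 and 8.78 CPM in SKOV3 but at most at 0.107 and 0.238 CPM in SKOV3_TR. SPARC, a matrix protein, went the other way, from 9.09 and 1.82 CPM in SKOV3 to 358.7 and 310.1 CPM in SKOV3_TR.

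QC and vehicle libraries were compared within the lines. A difference of at least 2-fold between QC and vehicle in the same direction in both SKOV3-family lines was seen for 2 of the 2450 higher members (0.0816%) and 11 of the 1875 lower members (0.587%), against 0.867% of all tested genes. The rule limits these differences too, so nothing is read from the shares. The QC response of the SKOV3 family was also tested against that of the other families with the cell line as a block, a measure the membership did not use. By the edgeR quasi-likelihood test 0 of 17766 genes differed at an adjusted p under 0.05, the smallest adjusted p was 0.0803, and 1283 genes (7.22%) had an unadjusted p under 0.05, 153 of them higher and 120 lower members. DESeq2 with the same block called 52 genes, among them the lower members IL1B and EPHA2 described above. The edgeR test called neither of these 2 genes (edgeR adjusted p = 0.486 and 0.505). For ERBB2 the edgeR response differed by 0.30 ± 0.29 on the log2 scale (edgeR adjusted p = 0.872).

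As OV2008 shares its medium with SKOV3, the comparison with that family was also read alone. The edgeR test called 4554 genes higher (25.6%) and 4193 lower (23.6%) against OV2008, and 4535 higher (25.5%) and 4059 lower (22.8%) against HeyA8. Against OV2008 the log2 difference was 12.13 for PPP1R1B and 5.91 for ERBB2. The ERBB2 neighbors had a median log2 difference of 3.32 against OV2008 and 2.76 against HeyA8. PPP1R1B, ERBB2 and most of these neighbors are members and so lie above every OV2008 library by the rule. The direction of these differences was therefore fixed in advance, and they are not separate support. An effect of the medium was not tested.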

How the data were processed

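RNA was extracted with TRIzol and sequenced after library preparation with a TruSeq kit, with 1 library for each of 6 cell lines under vehicle and under QC. The authors deposited 1 table of read counts per gene for 60669 gene identifiers, made with HTSeq. The submitters' processing notes name STAR 2.7.3a, HTSeq 0.6.1p1 and GRCh38.p13, whereas the study's methods name another aligner and build, so no gene coordinates are given from the counts. The annotation and the strand setting of the counting are not given in the sources used here. Of the identifiers 2049 carried no symbol, with 0.132% of the counts.

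Genes that passed filterByExpr in edgeR 4.0.16 (R 4.3.3) for the 3 families were tested, and levels are CPM with trimmed mean of M-values factors. Gaps are differences of log2 levels computed with a prior count of 2. One mean per family was fitted with the edgeR quasi-likelihood test, with Benjamini-Hochberg adjustment over all tested genes, and the QC response was fitted with a term per cell line. DESeq2 1.42.0 was an alternative. The fits were tested on simulated data. The members and lists were chosen with earlier results of these data known. Genes were named if they belonged to a list or to the 25 widest gaps in each direction with at least 2 CPM in the lowest library of the higher side. UBE2G1, ZZEF1, LRRC41, NSUN4, UQCRHL, E2F3, CDKAL1, ZNF667, ZNF737 and the genes at the ends of the runs were chosen after their values were seen, as were the genes at the edge of the rule. Of 844 listed genes, 10 could not be paired with a symbol of the table. Gene order came from a GENCODE annotation of another build and was used for order only. Promoters came from RefSeq and matched 69.2% of the tested genes, so values over members cover only those with a window. The median CG count was 26 for 1645 of the 2450 higher members and 25 for 1402 of the 1875 lower members. For the tested genes with a window it was 25. Some genes of the lists and of the widest gaps are not reported here.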

Additional observations from a re-analysis of the deposited data

Results flagged for a closer look

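Of 443 groups of 4 libraries examined for the named genes, 29 held a library far from the other 3. A chance rate of about 1 in 20 would hold only for groups of independent replicates. The libraries of a family are related lines under vehicle and QC, so the 29 cannot be set against that rate. Levels are normalized CPM, with the nearest other library of the same family second.

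In the SKOV3 family, SKOV3_TR with vehicle was low for FBXW7 (14.52 against 18.16) and ZEB1 (49.21 against 65.46), and SKOV3_TR with QC was high for SFN (32.01 against 18.06) and CDKN2A (0.3196 against 0). SKOV3 with vehicle was high for TAPBP (70.72 against 54.38) and MYL9 (0.1676 against 0), and low for INHBA (0.08379 against 0.5049). SKOV3 with QC was high for STK11 (138.7 against 119.3) and low for CDH5 (0 against 0.2131). The values of CDKN2A, MYL9, INHBA and CDH5 are near the floor.

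In the HeyA8 family, HeyA8 with vehicle was high for SNAI2 (108.2 against 54.78). HeyA8 with QC was high for SERPINB5 (2.345 against 0.6515) and ZNF542P (0.1466 against 0). HeyA8_MDR with vehicle was low for ARHGDIB (276.2 against 346.1) and HBEGF (34.12 against 80.28), and HeyA8_MDR with QC was high for PNMT (0.2369 against 0).

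In the OV2008 family, OV2008 with QC was high for BNC1 (219.3 against 106.2), FST (253.8 against 116.7), KRT81 (34.6 against 6.886), TGFA (160.0 against 102.8), FZD8 (13.94 against 9.934) and PNMT (0.5715 against 0.07526). OV2008 with vehicle was high for ABCA13 (8.935 against 4.478), PAX9 (30.38 against 21.11), FGFR4 (7.706 against 3.693) and CYP1B1 (9.549 against 5.759), and low for KRT7 (13.79 against 25.06). OV2008_C13 with vehicle was low for SMAD6 (18.84 against 29.76) and high for ZNF737 (0.1322 against 0), and OV2008_C13 with QC was high for ZNF542P (0.1505 against 0).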

How the results depend on the processing

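No paired analysis was possible for the family contrasts because each line belongs to 1 family and the labels carry no replicate numbers. Vehicle and QC libraries are paired within a line, and the QC response was fitted with the cell line as a block. Without the block 0 genes were called and 184 had an unadjusted p under 0.05. Each family rests on 4 libraries from 2 related lines, and low counts limit the genes near the floor. The pairwise contrasts, the within-family counts and the zinc-finger counts were given their alternatives after seeing the data. With at least 10 counts required in every library, which leaves fewer genes to test, 1402 genes lay above the other families, and the edgeR test called 3041 higher against their mean, 2736 against HeyA8 and 2878 against OV2008. With the 6 vehicle libraries only, 3692 genes lay above and 3058 below, since fewer libraries have to be separated, and the test called 2186 higher and 1211 lower against the mean, 1212 and 1024 against HeyA8, and 1717 and 1418 against OV2008. A gap of at least 1 on the log2 scale left 863 higher and 389 lower genes. Leaving out 1 library at a time gave 2559 to 2852 genes above and 1939 to 2213 below. The edgeR counts then ran from 4547 to 5273 higher and 3651 to 4134 lower against the mean, from 3997 to 4658 and 3585 to 4168 against HeyA8, and from 4158 to 4798 and 3793 to 4393 against OV2008. With library size alone the median log2 difference of all tested genes was 0.31 in place of 0.08, and 66.1% of the calls were higher in place of 55.2%. The QC response difference was called for 52 genes by DESeq2 with the cell line block and for 177 without a filter, and leaving out 1 line gave 0 to 2 genes, with 2 genes without HeyA8_MDR. The cause of these differences was not tested. Of 3131 values of the 170 named genes under the alternatives, 3083 kept their direction and their side of the threshold, 39 lost the call, 9 gained it and 0 reversed. Many of the named genes are members, and the rule had fixed their direction on the same libraries. These counts are therefore not separate support.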
